A study of Mus musculus with 8 samples.

Results

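Collagens are secreted proteins whose chains wind around each other in a triple helix, and they make up much of the matrix that fibroblasts lay down. Fibrillar collagens (types I, II, III, V, XI and relatives) assemble into the banded fibres that carry tension. Type IV forms the sheet-like network of basement membranes, and type XVIII sits in the same membranes. The remaining types include beaded filaments (VI), short-chain networks (VIII, X), anchoring fibrils (VII), fibril-associated collagens (XII, XIV, XVI, XIX, XX, IX) and membrane-spanning forms (XXIII).

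The genes described here were the autosomal protein-coding genes whose symbol has the form Col, a number, a and a number, and that had 10 or more allele-assigned reads in at least 1 of 4 pools of libraries. Of 42 such symbols, 30 qualified, against 10985 autosomal protein-coding genes at the same depth in all. They comprised 10 fibrillar, 5 basement membrane and 15 other collagens. In the pools taken singly, 23, 22, 20 and 21 symbols reached 10 reads (WT first, then XiΔXist, then the shSCR and shYY1 pools), and 13 genes had 50 or more reads in each pool. The 12 that did not qualify were Col11a2, Col15a1, Col13a1, Col17a1, Col22a1, Col25a1, Col26a1, Col28a1, Col6a4, Col6a5, Col9a1 and Col9a2.

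The cells were female mouse embryonic fibroblasts (MEFs) labelled as strain 129S1/SvImJ x CAST/EiJ and held as clonal lines. The study names the 129 parent as 129Sv4/Jae, and reads were assigned to it by the bases of 129S1/SvImJ. WT cells carried an intact Xist, the long non-coding RNA that keeps 1 X chromosome silent, and XiΔXist cells lacked Xist on the inactive X (Xi). XiΔXist shSCR cells were the XiΔXist line given a lentiviral scrambled hairpin, and XiΔXist shYY1 cells the same line given hairpins against YY1, a zinc finger transcription factor; both hairpin groups were selected with puromycin. So every group but WT shares the Xist deletion, each genotype is a single clone, and the YY1 group joins a different hairpin in each of its replicates. Each group had 2 replicates, whose reads the authors merged before counting. No spread between replicates can therefore be given, and all intervals and tests below compare pools and cover counting error only. A difference between WT and XiΔXist pools cannot be told apart from a difference between clones.

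The pools held 18745483 (WT), 21342574 (XiΔXist), 1470870 (XiΔXist shSCR) and 1472083 (XiΔXist shYY1) autosomal reads that carried a base differing between the strains. A count of 3 reads, taken here as the floor, equals 0.160, 0.141, 2.04 and 2.04 counts per 1000000 autosomal reads (CPM). Xist had 35405 reads in WT and 21, 0 and 6 in the other pools, and Yy1 fell to 38.8% of the hairpin control (237 to 92 reads). Of 8 fibroblast markers, Vim, Prrx1, Pdgfra, Pdgfrb and Thy1 had between 71 and 79563 reads in each pool, while Twist1 was at 0 in all 4 and Fap had at most 2 reads. S100a4 had 0 reads in WT, 12 in XiΔXist, 5 with shSCR and 8 with shYY1. The summed fibroblast marker level lay between 5114 and 7097 CPM, those of the 6 epithelial, 4 endothelial and 4 skeletal muscle markers never passed 4.76 CPM, and that of the 8 chondrocyte markers lay between 47.2 and 194 CPM, nearly all of it Sox9. The 6 osteoblast markers summed to between 16.3 and 53.7 CPM, nearly all of it Runx2, and the 4 haematopoietic markers to 30.8 CPM in WT, 2.53 in XiΔXist, 21.8 with shSCR and 33.3 with shYY1, mostly Cd34, with Ptprc at 5 reads or fewer in each pool.

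Collagen reads made up 0.929% of the autosomal reads of WT and 0.496% of those of XiΔXist. They made up 1.18% in the shSCR pool and 1.51% in the shYY1 pool. In the untreated pools 4 genes carried most of them. Col5a2, the second chain of the type V collagen that nucleates fibrils, took 35.3% of the collagen reads in WT and 31.5% in XiΔXist. Col1a2, a chain of type I collagen, took 22.9% and 20.7%. Col12a1, whose product lines the surface of type I fibrils, took 15.3% and 17.1%, and Col8a1, a short-chain network collagen, took 14.6% and 20.2%. In the hairpin pools the order was another. Col4a1, a chain of the basement membrane network, led with 18.8% and 18.6%, and Col1a2 came next with 14.8% and 17.9%. Col1a1, the major chain of type I collagen, took 10.9% and 12.1%, where it had taken 0.306% and 0.248% in the untreated pools.

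On the scale of CPM per kilobase of exon, Col5a2 stood first in WT (341) and XiΔXist (163), followed by Col8a1 (174 and 128), Col1a2 (171 and 82.5) and Col12a1 (93.3 and 55.6). Col4a1 stood first in XiΔXist shSCR (298) and XiΔXist shYY1 (377). The number of informative bases per kilobase differs between genes, so a level per length orders genes only roughly. Levels also shifted with the base composition of the transcripts between the untreated and the hairpin pools, as given below. The part of base composition in this order was not tested.

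**Figure D1:**
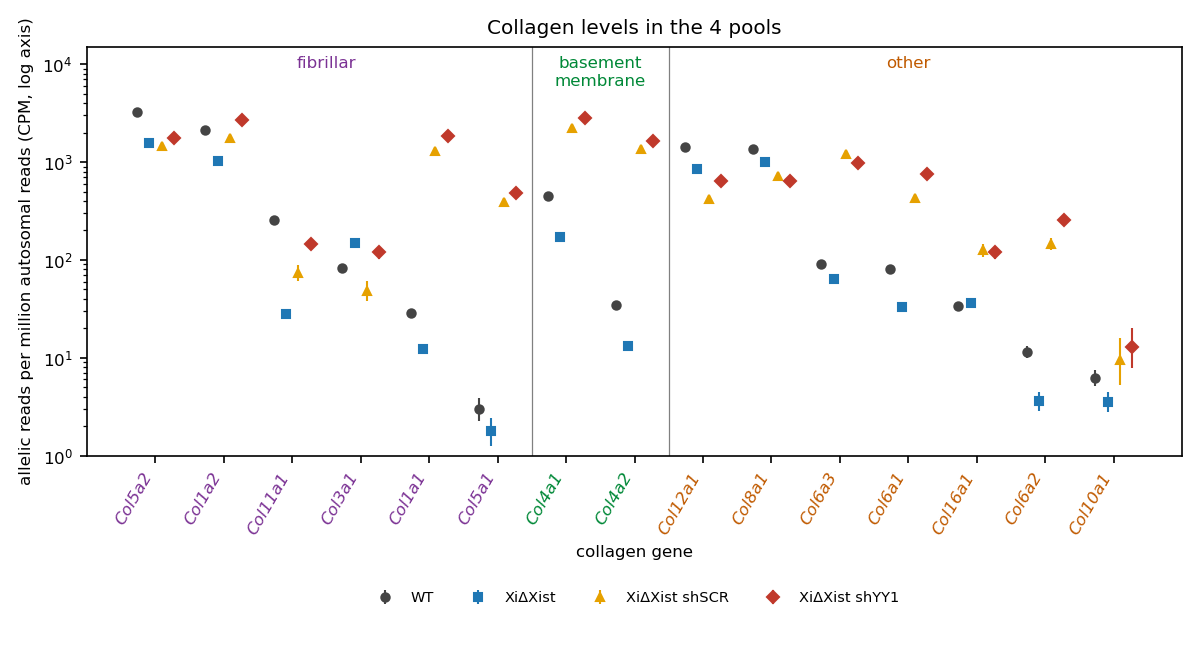
CPM (log axis) of the 15 collagens with 10 or more reads in each of the 4 pools, grouped by class and ordered by their WT level, with exact 95% Poisson intervals. Blue squares (XiΔXist) lie below grey circles (WT) for most genes, from 3274 to 1565 CPM for Col5a2 and from 257 to 27.8 CPM for Col11a1, while Col3a1 goes from 82.7 to 148 CPM. The hairpin pools stand far above the untreated ones for Col1a1, Col5a1, Col4a1, Col4a2 and the Col6 genes.

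The first comparison asked which collagens differed in total level between cells with and without Xist on the Xi. Of 18 collagens with 50 or more reads in both pools together, 10 were 2-fold or more lower in XiΔXist and 0 were higher, where 6.19% of 10315 autosomal genes were lower and 3.35% higher. The median log2 ratio (of CPM plus 1) was -1.06 over these collagens and -0.08 over all autosomal genes tested. The interval of the ratio lay below 0 for 15 of the 18 and above 0 for 1, where it lay below 0 for 36.4% of the 10315 autosomal genes and above 0 for 24.2%. An interval narrows as reads increase, and collagens and other genes were not matched for reads in such counts. The summed level of all 30 genes went from 9286 to 4960 CPM, a ratio of 0.534, and without Col5a2, its largest contributor, the ratio was 0.565.

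Among the 6 fibrillar collagens tested, 4 were lower and their summed level was 0.482 of that in WT. Col11a1, a chain of the thin fibrils of cartilage, was 256.9 CPM in WT, 27.8 in XiΔXist, 73.4 with shSCR and 145 with shYY1. Between the untreated pools it differed 9.23-fold (log2 ratio -3.16, 95% interval -3.33 to -3.08 for the plain ratio). Col5a2 went from 3274 to 1565 CPM (log2 ratio -1.06) and Col1a2 from 2126 to 1025 CPM (log2 ratio -1.05). Both lay just past the 2-fold line and fell just short of it, at -0.99 and -0.98, when pools were scaled to the median gene. Col1a1 had 28.4 CPM in WT and 12.3 in XiΔXist (log2 ratio -1.14). Col5a1, the first chain of type V, had only 56 and 38 reads, and its log2 ratio was -0.52. These genes are dispersed in the mouse genome (GRCm38), with Col1a1 at chr11:94936224-94953042, Col1a2 at chr6:4504814-4541544, Col5a1 at chr2:27886425-28039514 and Col11a1 at chr3:114030540-114220718.

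Col3a1, the chain of the type III collagen of distensible tissue, went the other way. It had 82.7 CPM in WT, 148 in XiΔXist, 48.3 with shSCR and 120 with shYY1. Its log2 ratio of XiΔXist to WT was 0.83, with an interval of 0.75 to 0.93, and it was the only collagen whose interval lay above 0 there. Col3a1 (chr1:45311538-45349706, plus strand) and Col5a2 (chr1:45374321-45503282, minus strand) are neighbours in a tail-to-tail arrangement. The ratio of Col3a1 reads to Col5a2 reads was 0.0253 in WT and 0.0946 in XiΔXist. An exon of Gm47302 overlaps Col3a1, and reads in such a stretch may be split or dropped in counting.

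The 250 bases upstream of Col11a1 and Col3a1 are shown because these were the fibrillar genes that moved furthest in opposite directions. The sequences are RefSeq's on build GRCm38.p6, given 5′ to 3′ on the strand of the gene, and lie in no annotated exon. Capitals mark CCAAT (named for its letters), TATAA (the TATA box), GGGCGG (the GC box bound by Sp1) and CCATNTT (the core bound by YY1), each searched on both strands, where matches of different motifs or strands may adjoin.
Col11a1 (chr3:114030290-114030539, plus strand): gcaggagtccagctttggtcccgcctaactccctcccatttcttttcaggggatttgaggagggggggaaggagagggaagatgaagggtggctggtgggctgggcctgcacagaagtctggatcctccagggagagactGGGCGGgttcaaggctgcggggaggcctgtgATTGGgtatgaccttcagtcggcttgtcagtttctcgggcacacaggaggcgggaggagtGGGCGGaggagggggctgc
Col3a1 (chr1:45311288-45311537, plus strand): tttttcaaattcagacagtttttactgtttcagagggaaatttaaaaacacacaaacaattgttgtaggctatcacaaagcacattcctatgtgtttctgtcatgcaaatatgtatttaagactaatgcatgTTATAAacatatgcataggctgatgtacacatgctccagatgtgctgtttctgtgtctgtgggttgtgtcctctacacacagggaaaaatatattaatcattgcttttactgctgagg
The Col11a1 stretch was 62.4% G and C and held CCAAT and GGGCGG, while the Col3a1 stretch was 35.2% G and C and held TATAA alone. Upstream stretches were found for 23 of the 30 genes, as 25 sequences. GGGCGG was in 15 of these (60%), against 33.0% of 31396 autosomal stretches of the same length. CCAAT was in 8 (32%, against 33.7%), TATAA in 2 (8%, against 22.8%) and CCATNTT in 2 (8%, against 12.3%). A match is a run of letters and no evidence that a factor binds there.

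All 4 basement membrane collagens tested were lower in XiΔXist, and their summed level was 0.371 of that in WT. Col4a1 (chr8:11198423-11312826) and Col4a2 (chr8:11312805-11449287) start head to head, with first exons that overlap by a few bases, and their products form the common type IV trimer. Col4a1 had 452 CPM in WT, 172 in XiΔXist, 2222 with shSCR and 2815 with shYY1. Col4a2 had 34.5, 13.2, 1346 and 1658 CPM. Both had fallen alike in XiΔXist, with plain ratios of 0.381 and 0.383 (log2 ratios -1.39 and -1.32), and the ratio of their reads was 13.1 in WT and 13.0 in XiΔXist.

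Col4a3 (chr1:82586921-82722059) and Col4a4 (chr1:82448423-82586849), the chains of the specialised type IV network of kidney and lung, are another head-to-head pair. Col4a3 had 218 reads in WT and 20 in XiΔXist (11.6 and 0.937 CPM), with a plain ratio of 0.0806 whose log2 interval was -4.37 to -2.97. Col4a4 had 125 and 19 reads (6.67 and 0.890 CPM), with a plain ratio of 0.134. On the scale of CPM plus 1 these log2 ratios were -2.70 and -2.02. Col18a1 had 1 and 3 reads and was not tested.

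Of the 8 other collagens tested, 2 were lower, and the summed level of the class was 0.662 of that in WT. Both were chains of the type VI beaded filament, and their genes lie close together on chromosome 10. Col6a1 had 80.9 CPM in WT and 33.4 in XiΔXist (log2 ratio -1.25), and Col6a2 had 11.5 and 3.61 (log2 ratio -1.44). The longest chain of the same filament, Col6a3, encoded on chromosome 1, went from 90.8 to 63.9 CPM, with a log2 ratio of -0.50 and an interval of -0.61 to -0.40. Col12a1 had 1421 and 846 CPM (log2 ratio -0.75) and Col8a1 1360 and 1002 CPM (log2 ratio -0.44). Their intervals lay below 0 but inside the 2-fold line. Col16a1 (33.6 and 36.0 CPM) and Col14a1 (27 and 35 reads), both fibril-associated, had intervals that included 0.

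The second comparison asked what the YY1 hairpins changed against the scrambled hairpin. Of 16 collagens tested, 1 was 2-fold or more higher, Col3a1, and 0 were lower, where 1.57% of 7979 autosomal genes were higher and 1.13% lower. Of the 16 log2 ratios 13 were above 0, where 47.4% of the 7979 were. The interval lay above 0 for 11 and below 0 for 2, where it did so for 12.8% and 13.3% of the 7979. The median was 0.32 against -0.02 over all genes tested. The summed level went from 11828 to 15133 CPM, a ratio of 1.28. With merged replicates no test over samples could be run, and these counts describe the pools.

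All 6 fibrillar collagens tested had an interval above 0, against 12.8% of all autosomal genes tested, which were not matched to them for reads. Col3a1 had 71 reads with shSCR and 176 with shYY1 (48.3 and 120 CPM), a 2.48-fold difference with a log2 interval of 0.90 to 1.73. Col11a1 had 108 and 214 reads (73.4 and 145 CPM), a 1.98-fold difference just inside the line. Col1a2 went from 1752 to 2714 CPM (log2 ratio 0.63), Col1a1 from 1287 to 1828 CPM (0.51), Col5a1 from 391.6 to 480 CPM (0.29) and Col5a2 from 1471 to 1766 CPM (0.26).

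In the basement membrane class Col4a1 went from 2222 to 2815 CPM (log2 ratio 0.34) and Col4a2 from 1346 to 1658 CPM (0.30). Col18a1, whose C-terminal fragment is endostatin, had 76 and 80 reads and an interval of -0.40 to 0.55. The type VI chains parted. Col6a1 (431 to 753 CPM, log2 ratio 0.80) and Col6a2 (146 to 258 CPM, 0.82) were higher, while Col6a3 went from 1209 to 989 CPM, with a log2 ratio of -0.29 and an interval of -0.39 to -0.19. Col12a1 went from 420 to 647 CPM (log2 ratio 0.62) and Col8a1 from 726 to 645 CPM (-0.17). Col16a1 (125 and 120 CPM) and the anchoring fibril chain Col7a1 (66.6 and 67.3 CPM) had intervals that included 0.

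**Figure D2:**
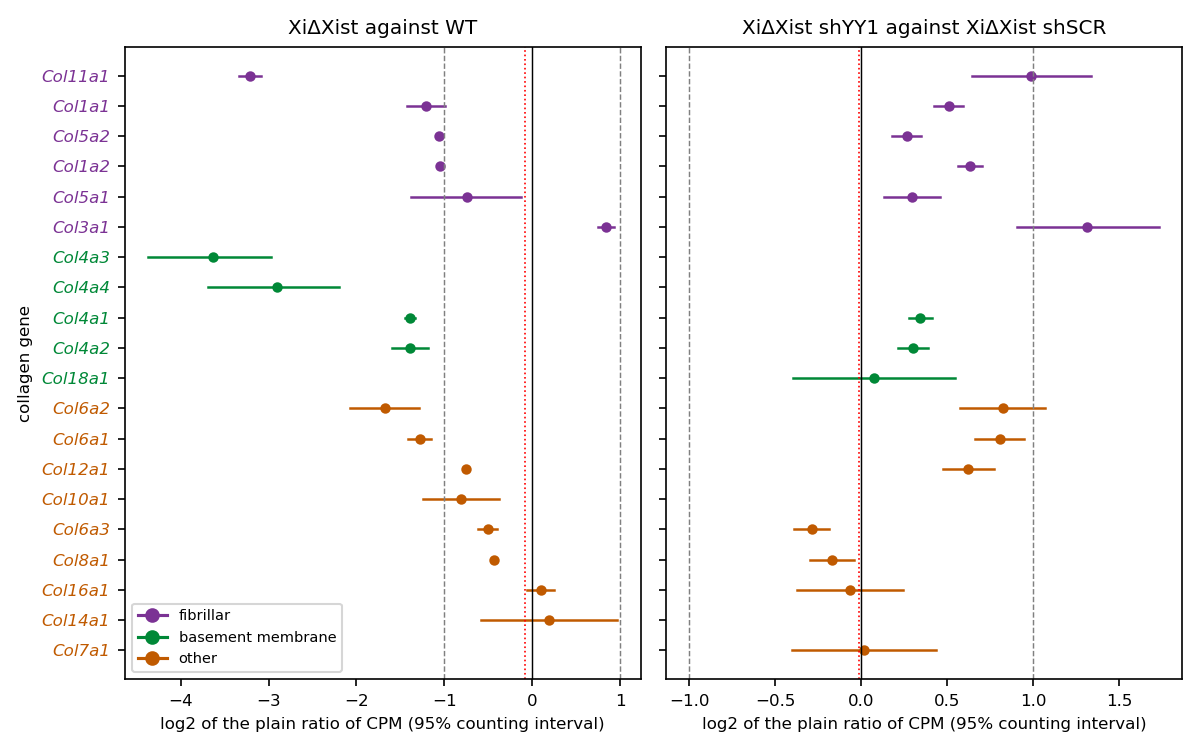
Log2 of the plain CPM ratio of each collagen tested, with its exact 95% counting interval, for XiΔXist against WT (left, 18 genes) and XiΔXist shYY1 against XiΔXist shSCR (right, 16 genes). Dashed lines mark 2-fold and dotted red lines the median of all autosomal genes tested, and the horizontal scales differ. On the left all but Col3a1, Col16a1 and Col14a1 lie below 0. On the right 13 of 16 lie above 0 and Col3a1 is past the line.

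The control hairpin pool was also set against the untreated XiΔXist pool. Of 17 collagens tested, 12 were 2-fold or more higher with shSCR and 2 lower, where 45% of 10032 autosomal genes were higher and 20.5% lower. The collagen median log2 ratio was 3.65 and that of all genes 0.70, and when pools were scaled to the median gene they were 2.92 and -0.01. Col1a1 went from 12.3 to 1287 CPM, Col5a1 from 1.78 to 391.6, Col4a2 from 13.2 to 1346 and Col6a2 from 3.61 to 146. Col18a1 had 3 reads against 76 and Col7a1 8 reads against 98. Col3a1 (148 to 48.3 CPM, log2 ratio -1.60) and Col12a1 (846 to 420 CPM, -1.01) were lower, and Col5a2 had 1565 and 1471 CPM.

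These ratios moved with the base composition of the transcripts. When all genes tested were divided into 10 bins by the percent of G and C in their longest transcript, the median log2 ratio rose from -1.12 in the lowest bin to 4.32 in the highest, and 8 of the 17 collagens lay in the highest. After each gene's bin median was subtracted, the collagen median was -0.21, with 7 genes higher and 5 lower. Col1a1 (58.9% G and C) then stood at 2.27, Col5a1 at 2.82 and Col4a2 at 2.24, whereas Col4a1 (57.7%) stood at -0.64 and Col1a2 (55.7%) at -2.19. The same bins ranged only from -0.12 to -0.06 for XiΔXist against WT and from -0.14 to 0.05 for shYY1 against shSCR.

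For some chains of a single trimer the ratio of reads also differed between the untreated and the hairpin pools. The ratio of Col1a1 to Col1a2 reads was 0.0133 in WT, 0.0120 in XiΔXist, 0.735 with shSCR and 0.674 with shYY1. That of Col4a1 to Col4a2 was 13.1, 13.0, 1.65 and 1.70, and that of Col6a1 to Col6a2 7.02, 9.25, 2.95 and 2.92. Each of these ratios differed less within the untreated pair and within the hairpin pair of pools than between them. That of Col6a3 to Col6a1, also chains of type VI, did not part in this way, at 1.12, 1.92, 2.80 and 1.31. The hairpin pools also had far fewer reads, came from longer sequencing reads and had gone through transduction and selection, and the parts of these in the differences cannot be told apart.

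**Figure D3:**
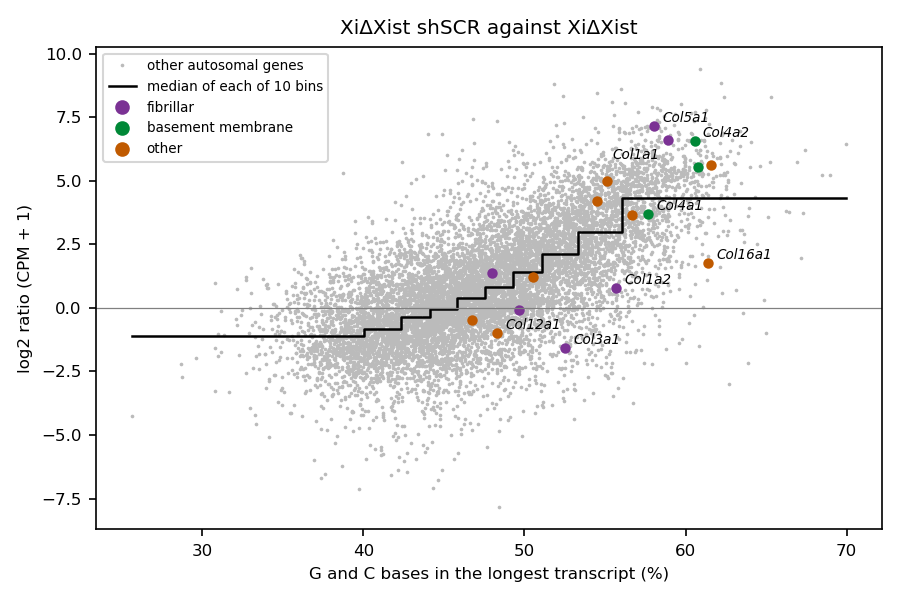
Log2 ratio (CPM + 1) of XiΔXist shSCR to XiΔXist against the percent of G and C bases in a gene's longest transcript, for 10032 autosomal genes (grey), with the median of each of the 10 bins of genes (black steps) and the 17 collagens in colour. The steps climb from -1.12 to 4.32, and the collagens spread from -1.60 (Col3a1) to 7.14 (Col5a1), with Col16a1 and Col1a2 below their step and Col1a1 and Col5a1 above it.

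The machinery that builds collagen was read from a list of 64 genes, of which 63 are autosomal. In XiΔXist against WT, 3 of 50 tested were 2-fold or more higher and 6 lower, against 3.35% and 6.19% of all autosomal genes tested, with a median log2 ratio of -0.30 against -0.08. Among 17 genes of chain modification and folding, P4ha3 (a prolyl 4-hydroxylase subunit, 8.16 to 0.515 CPM, log2 ratio -2.60) and P3h2 (a prolyl 3-hydroxylase, 2.72 to 0.562 CPM, -1.25) were lower. Serpinh1, the collagen chaperone HSP47, went from 1119 to 590 CPM with a log2 ratio of -0.92. None of 4 export genes passed the line. Among 10 genes of processing and crosslinking Tll1, a tolloid-like procollagen proteinase, was lower (266 to 101 CPM, -1.39), while Lox, the lysyl oxidase that crosslinks fibrils, had 2050 and 1745 CPM (-0.23).

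Of 5 matrix partners tested, Dcn (decorin, 32.6 to 102.7 CPM, log2 ratio 1.63) and Tnc (tenascin C, 213 to 620 CPM, 1.54) were higher and Postn (periostin, 636 to 136 CPM, -2.21) was lower. Of 5 receptors, Itga2, the alpha subunit of a collagen-binding integrin, was higher (6.61 to 74.5 CPM, 3.31). Of 9 regulators, Tgfb2 (28.7 to 0.609 CPM, -4.21) and Ccn2 (connective tissue growth factor, 75.3 to 25.7 CPM, -1.51) were lower. In shYY1 against shSCR, 0 of 48 were past the line in either direction, against 1.57% higher and 1.13% lower of all genes tested, and the median was 0.06. The nearest were Loxl2, a lysyl oxidase (105 to 201 CPM, log2 ratio 0.93), and Tgfb2 (22.4 to 42.1 CPM, 0.88). In shSCR against XiΔXist, 32 of 51 were higher and 7 lower, against 45% and 20.5% of all genes tested. The 5 fibroblast markers tested had a median log2 ratio of -0.04 in XiΔXist against WT, from -0.89 (Pdgfra) to 1.49 (Thy1, past 2-fold). In shYY1 against shSCR their median was 0.32, from -0.21 (Pdgfra) to 0.63 (Pdgfrb). The part of cell makeup in the collagen values was not tested. In bulk samples fewer cells making a transcript and less of it per cell cannot be told apart.

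**Figure D4:**
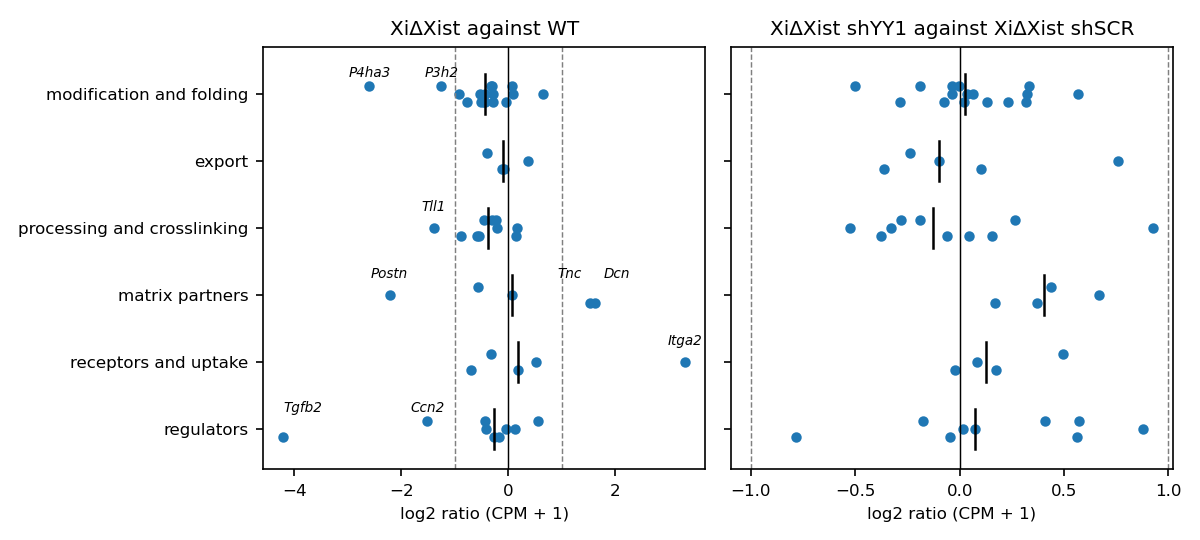
Log2 ratio (CPM + 1) of each tested gene of the collagen pathway list, by group, for XiΔXist against WT (left, 50 genes) and XiΔXist shYY1 against XiΔXist shSCR (right, 48 genes), with black bars at group medians and dashed lines at 2-fold. On the left the 9 labelled genes lie past the lines, from Tgfb2 at -4.21 to Itga2 at 3.31. On the right no gene does.

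The 129 share, the percent of a gene's allele-assigned reads that carry the 129S1/SvImJ base, was high for most collagens. It reached 90% for 14 of 23 collagens in WT and for 14 of 22 after Xist deletion. With shSCR it did so for 10 of 20, and with shYY1 for 11 of 21. Over all autosomal genes with 10 or more reads the proportion was 42.8%, 42.7%, 42.7% and 43.3%. Nearly all of these collagens lay where the median of the genes within 5 Mb was also 90% or more, 14, 13, 10 and 11 of them in the 4 pools. They include Col5a2 (98.6% in WT), Col3a1 (96.6%), Col6a3 (96.5%), Col8a1 (99.9%), Col11a1 (97.2%), Col10a1 (100%) and Col4a2 (100%). In WT and XiΔXist the total level of these genes was thus close to the level of the 129 allele. Col11a1 was under 90% in the hairpin pools, at 88.0% with shSCR and 88.3% with shYY1. Whether a CAST copy was present was not tested.

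Both alleles were read for a smaller set. Col1a2 had a 129 share of 53.2%, 52.1%, 52.9% and 53.7% (again WT, XiΔXist, shSCR, shYY1), the narrowest range of these genes. Col1a1 had 41.2%, 28.9%, 44.2% and 51.0%. Col12a1 had 24.8%, 23.6%, 37.9% and 32.5%, Col6a1 55.4%, 49.6%, 60.1% and 53.3%, Col6a2 56.0%, 49.4%, 39.5% and 49.5%, and Col16a1 77.9%, 76.3%, 84.2% and 80.7%. So Col12a1 was read mainly from the CAST allele in all 4 pools and Col16a1 mainly from 129. The median share of the genes within 5 Mb was 34.0%, 49.8%, 42.3% and 43.7% for Col12a1. For Col16a1 it was 85.3%, 82.5%, 86.6% and 86.6%, so its neighbours were also read mainly from 129.

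Against neighbours within 5 Mb, a collagen was set apart where its whole 95% Wilson interval lay 10 percentage points or more from their median. In WT, 0 of 23 were above and 1 below, where 5.62% and 11% of 12363 autosomal genes were. In XiΔXist, 1 of 22 was above and 3 below, against 6.24% and 11.4% of 12018. With shSCR, 0 of 20 were above and 2 below, against 3.54% and 7.03% of 10320, and with shYY1, 0 of 21 above and 3 below, against 3.5% and 7.14% of 10382. The counts are small and near these shares, so they are no result about the collagens. The genes below are those that met the rule, as many other autosomal genes did.

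Col1a1 was below its neighbours on chromosome 11 in WT (41.2% against 59.1%) and XiΔXist (28.9% against 52.1%). Col12a1 was below in XiΔXist (23.6% against 49.8%), where the neighbours' median stood 15.8 points higher than in WT and its own share 1.24 points lower. Col5a1 was below in XiΔXist shSCR (58.9% against 91.7%) and XiΔXist shYY1 (63.9% against 84.6%). From XiΔXist to XiΔXist shSCR the median of its neighbours rose by 43.2 points. The share of Col5a1 itself rose by 8.85 points there (Fisher's exact test on reads, adjusted p = 0.709). Col18a1 was below in XiΔXist shYY1 (22.5% of 80 reads against 57.0%). Col14a1 (71.4% of 35 reads against 100%) was below and Col23a1 (12 of 12 reads against 50.7%) above in XiΔXist, both on few reads.

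Col4a1 had a share of 98.7% in WT and 98.3% in XiΔXist, but 85.0% in XiΔXist shSCR and 85.9% in XiΔXist shYY1, against a neighbour median of 100% in both hairpin pools. Its partner Col4a2 was at 100% in all 4 pools, on 282 to 2441 reads. Within the hairpin pools 489 of 3268 and 584 of 4144 Col4a1 reads were counted as CAST.

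**Figure D5:**
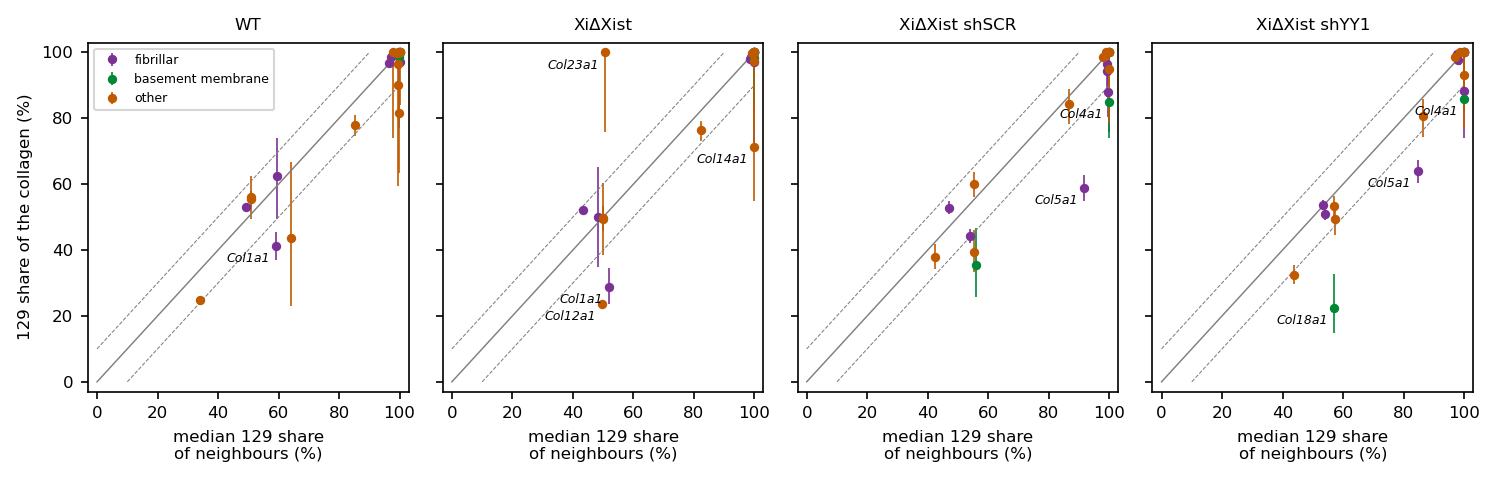
The 129 share of each collagen with 10 or more reads (vertical, with 95% Wilson interval) against the median 129 share of genes within 5 Mb (horizontal), 1 panel per pool. The solid line marks equality and the dashed lines 10 points from it, and the named genes lie wholly beyond a dashed line. Most collagens crowd at the upper right, and Col1a1, Col12a1, Col5a1, Col18a1 and Col4a1 lie below in 1 or 2 panels.

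A change in the 129 share was called at 10 points or more with an adjusted p under 0.05 by Fisher's exact test on the reads of the pools. In XiΔXist against WT, 0 of 19 collagens were higher and 1 lower, where 4.16% of 11409 autosomal genes were higher and 7.1% lower. Col1a1 fell by 12.3 points (Fisher's exact test on reads, adjusted p = 0.0053), and the median of its neighbours fell by 7.05 points. By the same test 4 collagens had an adjusted p under 0.05. Besides Col1a1 these were Col3a1, Col1a2 and Col12a1, whose shares changed by only 1.33, -1.10 and -1.24 points. In shYY1 against shSCR, 0 of 19 were called in either direction, where 0.607% of 9720 genes were higher and 0.514% lower. There 7 collagens had an unadjusted p under 0.05 and 1 an adjusted p under 0.05. That was Col1a1, whose share was 6.81 points higher (Fisher's exact test, adjusted p = 0.00458) while its neighbours' median moved by -0.05 points.

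In shSCR against XiΔXist, 3 of 16 were higher and 1 lower, where 9.89% of 9212 genes were higher and 9.05% lower. Col1a1 was 15.3 points higher, Col12a1 14.3 and Col6a1 10.5, and Col4a1 was 13.3 lower. The reads behind these shares differ between the pools as described for the levels.

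The total change of Col1a1 in XiΔXist against WT was larger on the 129 allele (log2 ratio -1.48, from CPM plus 1) than on CAST (-0.86). That of Col1a2 was alike on both (-1.08 and -1.02), as was that of Col5a2 (-1.06 and -1.09). In shYY1 against shSCR, Col1a1 had 0.71 on 129 and 0.32 on CAST, Col6a1 0.63 and 1.03, and Col6a2 1.13 and 0.56, and Col1a2 again moved alike (0.65 and 0.60). The difference between alleles is the change in share tested above, and for Col6a1 and Col6a2 it did not pass the adjusted threshold (Fisher's exact test, adjusted p = 0.182 and 0.312).

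The remaining members were thinly read. The 11 genes under 50 reads in each pool were Col24a1, Col27a1, Col2a1, Col5a3, Col14a1, Col19a1, Col20a1, Col23a1, Col6a6, Col8a2 and Col9a3, and 8 of the 30 members were at 0 in at least 1 pool. Col2a1, the cartilage fibril chain, had 0, 2, 3 and 11 reads, and Col19a1 had 20 reads in WT and 0 elsewhere. Col14a1 had 27 and 35 reads in WT and XiΔXist and 0 and 2 in the hairpin pools, and Col24a1 had 13, 14, 0 and 2. Col20a1 (0, 1, 20 and 13 reads) and Col5a3 (9, 0, 12 and 28) had more reads in the smaller hairpin pools than in the larger untreated ones, while Col27a1 had 9, 10, 7 and 17. These 3 transcripts are 56.1%, 61.6% and 59.4% G and C, beside 49.7% and 51.0% for Col14a1 and Col24a1. Col9a3 (59.2% G and C) had 8, 13, 4 and 3 reads, or 0.427, 0.609, 2.72 and 2.04 CPM. Col8a2 (59.1%) had 16, 1, 6 and 2 reads, or 0.854, 0.0469, 4.08 and 1.36 CPM. Scaled to depth, both were thus higher in the hairpin pools, on few reads. Col10a1, the collagen of hypertrophic cartilage, had 117, 76, 14 and 19 reads (log2 ratio of XiΔXist to WT -0.67), and an exon of Nt5dc1 overlaps it. In the hairpin pools 10 reads equal 6.80 and 6.79 CPM.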

How the data were processed

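RNA from 8 cultures of mouse embryonic fibroblasts (4 groups of 2) was sequenced after KAPA RNA HyperPrep library preparation. The deposited values are raw read counts per gene and allele: the authors merged the replicates of a group, aligned reads with TopHat to a GRCm38/mm10 genome masked at strain-specific bases, dropped alignments with a mapping quality under 30, split them by allele with SNPsplit and counted exons with featureCounts 1.6.3. The annotation release and strand setting are not given in the sources used here. Of 46078 gene identifiers, 45143 were found in GENCODE M21 on GRCm38, which gave symbols, positions and exon lengths, and 935 without a match were left out. Reads without an informative base are not in these files, so levels depend on how many such bases a gene holds and on read length, which differed between untreated and hairpin libraries.

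From the counts, both alleles were summed and scaled to 1000000 autosomal reads (CPM). Log2 ratios used CPM plus 1 for autosomal genes with 50 or more reads in both pools together and were called at 2-fold, with exact conditional 95% intervals of the plain ratio. The 129 share was tested per gene with a two-sided Fisher's exact test, adjusted by the Benjamini-Hochberg method over all autosomal genes with 10 or more reads in both pools, and called at 10 percentage points and an adjusted p under 0.05. Neighbour medians used genes within 5 Mb, at least 5 of them. Intervals cover counting error only, and amplified reads are not independent molecules. The merged files leave no replicates, so no model of replicate spread could be run. Python 3.11.15, numpy 2.4.6, pandas 2.3.3 and scipy 1.17.1 were used, and the calls were tested on simulated data. The collagens, their classes, the pathway and marker lists and the tests were chosen with earlier results of these data known. The genes named were the collagens with 50 or more reads in each pool, those called in any comparison or apart from their neighbours, and pathway genes past 2-fold in XiΔXist against WT or shYY1 against shSCR. Serpinh1, Lox, Loxl2, Tgfb2 with shYY1, Col14a1, Col24a1, Col27a1, Col20a1, Col5a3, Col18a1, Col10a1, Col2a1, Col19a1, Col9a3 and Col8a2 were named besides. Alternatives were another scaling, pseudocount, filter, threshold, single alleles, other windows, and genes without overlapping exons.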

Additional observations from a re-analysis of the deposited data

How the results depend on the processing

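No paired analysis was possible because the replicates of each group were merged before counting, and for the same reason no replicate could be left out. For XiΔXist against WT, the count of lower collagens stayed between 7 and 12 under the other settings, and with CAST reads alone it was 5 of 12. At 1.5-fold 1 gene was higher, Col3a1. For shYY1 against shSCR, 1 higher gene became 6 without the read filter (with 2 lower), 6 at 1.5-fold, 2 on 129 reads alone and 0 among collagens without exon overlap, where Col3a1 is left out. For shSCR against XiΔXist, 12 higher became 21 without the read filter and 7 among collagens without exon overlap, and 2 lower became 1 with collagen reads left out of the total, with 129 reads alone, with CAST reads alone and without exon overlap. Subtracting the bin median of base composition, chosen after seeing the data, gave 7 higher and 5 lower, and turned the median (-0.21), Col10a1 (-0.21), Col6a1 (-0.67), Col16a1 (-2.55), Col4a1 (-0.64) and Col1a2 (-2.19) below 0. For the 129 share against neighbours, the median of the whole chromosome in place of the window gave 5, 5, 5 and 7 collagens above in WT, XiΔXist, shSCR and shYY1, and 3 below in WT and 4 with shSCR. With 50 or more reads 0 were above in XiΔXist. At 3 points, 1 share rose with shYY1 (Col1a1) and 2 fell in shSCR against XiΔXist, and without exon overlap 0 fell there, since Col4a1 is left out. Less its neighbours' shift, the change of Col1a1 in XiΔXist against WT was -5.22 points. The hairpin pools' depth limits what could be seen in genes under 50 reads, and the cause of the other shifts was not tested.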

Other observations

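Col4a5 and Col4a6, the X-linked chains of type IV collagen, lie head to head on the X chromosome and were not among the autosomal genes described above. Col4a5 had 408 CPM (scaled to autosomal reads) in WT, 129 in XiΔXist, 91.8 with shSCR and 121 with shYY1. Col4a6 had 93.6, 15.2, 55.7 and 67.3 CPM. Both were thus lower in XiΔXist than in WT, as all 4 autosomal type IV genes tested were. In WT 4 of 7647 Col4a5 reads (0.0523%) and 2 of 1754 Col4a6 reads (0.114%) came from the 129 allele, that of the inactive X. The Col4a6 count lies under the floor of 3 reads and the Col4a5 count just above it. In XiΔXist 0 of 2758 and 0 of 325 reads did, which allows shares of up to 0.109% and 0.923% at 3 counts. The lower totals in XiΔXist were therefore those of the active, CAST allele.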
